A study of Mus musculus with 10 samples.

Results

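Canonical Wnt pathway genes were followed in primary B-cell lymphomas of Emu-myc mice that lack Suv39h1, a histone H3 lysine 9 methyltransferase. The 10 genes are a fixed list of pathway components: the receptor genes Fzd7, Lrp5 and Lrp6, the destruction complex genes Axin1, Axin2, Apc and Gsk3b, the beta-catenin gene Ctnnb1, and the transcription factor genes Tcf7 and Tcf7l2. For 9 of them the platform annotation named at least 1 probe set, out of 18193 genes with one, and where a gene had several, the brightest on average stood for it. Tcf7 had 0 named probe sets and is not analysed here. The arrays were Affymetrix mouse expression arrays, and every value is a log2 signal.

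The ADR group held cells of 5 lymphomas treated in culture with 0.05 µg/ml Adriamycin (ADR, doxorubicin, a DNA-damaging drug) for 5 days. The untreated group held cells of the same 5 lymphomas, named lymphoma_1032, lymphoma_4936, lymphoma_5783, lymphoma_7890 and lymphoma_9250, with 1 array each, so that the number pairs the arrays. Both groups carried the Emu-myc transgene, which is active in the B-cell lineage, the Suv39h1 deletion, and a retroviral Bcl2 that protects from apoptosis, and both grew on irradiated NIH 3T3 mouse fibroblasts. Lymphomas with Suv39h1 are not analysed here, and the deletion is shared by both groups. The series asks what Suv39h1 contributes to the senescence that ADR induces in such lymphomas.

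In the canonical Wnt pathway, a Wnt protein binds a Frizzled receptor together with Lrp5 or Lrp6. Without that signal, a complex built on Axin and Apc holds beta-catenin for phosphorylation by Gsk3b and other kinases, and the phosphorylated protein is degraded. With the signal, beta-catenin accumulates and joins TCF and LEF proteins on DNA, and Axin2 is among the genes that it then switches on. The pathway acts mainly through protein stability, which arrays of RNA do not measure. In the B lineage it is known best for its activity in early progenitors.

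The array medians lay between 4.43 and 4.50 except for the ADR array of lymphoma_1032, at 4.15. The 7 B-cell markers with a probe set of 8 listed were all tested. Their mean signal was between 7.57 and 9.79 on ADR arrays and between 8.06 and 9.90 on untreated arrays. It was lowest in lymphoma_1032 in both groups. Not all of them were high: Pax5 read 4.23 to 5.65 over the arrays, near the table's median of 4.43. In lymphoma_1032 Ms4a1 read 4.79 with ADR and 5.09 untreated, against at least 7.87 in the other lymphomas. Markers of other cell types also gave signal. The mean of 14 macrophage markers ranged over 5.10 to 8.71 with ADR and 4.99 to 8.67 untreated, and that of 17 fibroblast markers over 5.24 to 7.08 with ADR and 5.16 to 6.66 untreated. The 11 T-cell markers with a probe set averaged 4.29 to 5.13 with ADR and 4.38 to 5.39 untreated, and Cd3g, Cd8b1 and Themis did not exceed the table's median on any array. Others were high in single lymphomas. Cd5 read 10.71 with ADR and 11.26 untreated in lymphoma_1032, and 8.39 and 8.20 in lymphoma_5783. Cd2 read 8.74 and 8.75 in lymphoma_4936, and Cd28 6.46 and 7.35 in lymphoma_1032. Some markers of other cells rose with ADR on average. This held for 10 of 10 tested macrophage markers, with a median change of 0.55 and 4 at an unadjusted p below 0.05. Of the tested fibroblast markers 9 of 11 rose, with a median change of 0.17 and 5 at that p in either direction. The smallest p among them was that of Col1a1, which was lower in all 5 lymphomas (mean change -0.43, unadjusted p = 0.0040 in limma). Of the untested fibroblast markers, Postn, Col3a1 and Pdgfrb had mean changes of -0.49, -0.23 and -0.07. Those of Pdgfra, Lum and Thy1 were 0.42, 0.23 and 0.12. Over all genes tested 55.2% were lower on average. The untested macrophage markers fell instead, with mean changes of -0.79 for C1qa, -0.63 for C1qb, -0.60 for C1qc and -0.86 for Mrc1. Also lower were 4 of 6 tested T-cell markers and 2 of 2 tested endothelial markers, while 2 of 3 tested neutrophil markers were higher. None of the tested markers of these lists passed the adjusted threshold in limma. In lymphoma_5783 the tested macrophage markers had a median change of 1.52, the 3 tested neutrophil markers 1.62 and the tested fibroblast markers 0.56, and in lymphoma_1032 the medians were 1.05, 1.84 and 0.58. Over all macrophage markers with a probe set the mean change in lymphoma_5783 was 0.14, since C1qa, C1qb, C1qc, Mrc1 and Cd14 were lower there while Lyz2, Mpeg1, Csf1r, Itgam and Fcgr1 were higher. Over all 17 fibroblast markers the mean change there was 0.42, with Col1a1, Col3a1, Postn and Lum lower and the others higher. Over all 8 neutrophil markers it was 0.44, and S100a9, Camp and Ngp did not exceed the table's median on any array. Lcn2, 1 of the 3 tested, was lower, at 6.45 with ADR and 7.81 untreated. Whether the marker signals came from other cells, and their part in the results on the Wnt genes, was not tested. In a bulk sample, fewer cells of a type and less RNA per cell cannot be told apart.

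No member passed the test between ADR and untreated cells. Mean changes of the 6 tested members lay between -0.45 for Fzd7 and 0.16 for Ctnnb1. In the paired limma fit, 0 members passed an adjusted p of 0.05 (Benjamini-Hochberg over 11472 genes), and 0.00% of all genes tested did. At an unadjusted p below 0.05 there were likewise 0 members among the 6 that passed the level filter, against 8.48% of all genes tested, or 973 genes. The filter, a signal above the table's median of 4.43 on at least 5 of 10 arrays, kept Ctnnb1, Apc, Axin1, Gsk3b, Fzd7 and Lrp6. Axin2, Lrp5 and Tcf7l2 lay under it, above that median on 4, 3 and 0 of the 10 arrays. On average 4 of the 6 were lower with ADR, Apc, Gsk3b, Fzd7 and Lrp6, against 55.2% of all genes tested, and Apc and Lrp6 were higher instead once each array was centred on its median. The plot of the change within each lymphoma shows how the 9 genes spread around 0.

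**Figure D1:**
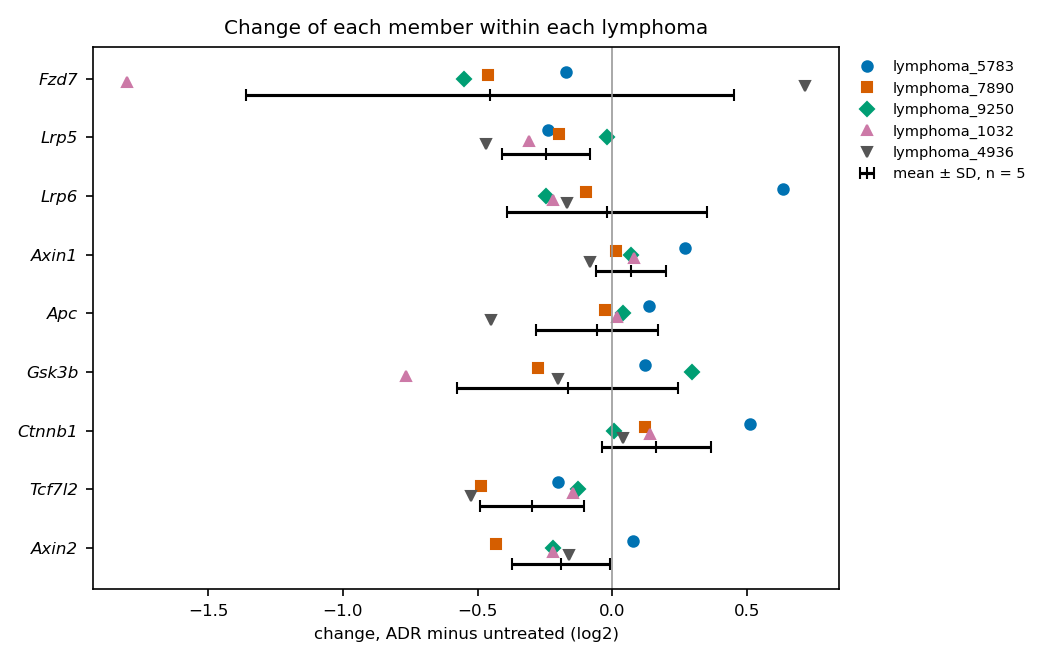
Change of each of 9 canonical Wnt genes within each lymphoma, as the log2 signal with ADR minus the log2 signal untreated (horizontal axis). Each marker is 1 lymphoma, and the black bar is the mean ± SD over the 5 lymphomas. Fzd7 has the widest spread, between -1.80 in lymphoma_1032 and 0.72 in lymphoma_4936, and Lrp5 and Tcf7l2 lie below 0 in all 5.

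Among the receptors, Fzd7, which encodes a Frizzled receptor for Wnt proteins, varied most. Its signal with ADR was 6.31 in lymphoma_1032, 4.80 in lymphoma_4936, 5.52 in lymphoma_5783, 5.60 in lymphoma_7890 and 5.55 in lymphoma_9250. Untreated cells of the same lymphomas had 8.11, 4.08, 5.69, 6.06 and 6.10. Lymphoma_1032 was the highest and lymphoma_4936 the lowest in both groups, and the groups overlapped. ADR cells were lower in 4 of 5 lymphomas, with a mean change of -0.45 ± 0.91 (SD, n = 5; 95% interval of the paired fit -1.19 to 0.28; adjusted p = 0.674 in limma). A mean change at least this large was found in 7.45% of the genes tested. The drop in lymphoma_1032 was 1.80, beside a median change of -0.17 over all genes tested in that lymphoma, and without it the mean change was -0.12. Without lymphoma_4936, the only one with a gain, the mean was -0.75 and the adjusted p in limma was 0.360 (unadjusted p = 0.0346). In lymphoma_1032, neutrophil markers changed by 1.20 on average, macrophage markers by 0.65 and B-cell markers by -0.49. Of the 8 neutrophil markers, Mmp8 read 9.89 with ADR and 7.09 untreated there, and S100a8 read 11.43 and 9.08. S100a9, Camp and Ngp did not exceed the table's median on any array. The part of all these markers in the Fzd7 value was not tested. The other probe set of Fzd7 changed by -0.36 in lymphoma_1032, and its mean change was 0.03 ± 0.38.

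The promoter windows of Fzd7, the member with the widest spread, and of Axin2, the pathway's feedback target, are shown for the DNA letters that TCF and LEF proteins prefer. They run from 250 bases before to 50 bases after the annotated start, on the plus strand of GRCm38.p6 (RefSeq), at chr1:59481897-59482196 and chr11:108920099-108920398. Capitals mark CTTTGA or CTTTGT on either strand. Fzd7 held 1 match, read as ACAAAG on the printed strand, and Axin2 held 0 in this window. Such a match is a description of letters, not a binding site, and 31.2% of all 32851 windows of this length held at least 1. Of the 9 members with values, 5 had windows in the table, 7 windows in all, and 3 of these held a match.
Fzd7: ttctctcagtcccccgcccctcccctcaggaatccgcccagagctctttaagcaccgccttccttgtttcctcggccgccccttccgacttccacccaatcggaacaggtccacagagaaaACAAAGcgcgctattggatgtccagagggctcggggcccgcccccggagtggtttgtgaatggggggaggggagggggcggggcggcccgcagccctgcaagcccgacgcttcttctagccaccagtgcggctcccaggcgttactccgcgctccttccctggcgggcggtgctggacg
Axin2: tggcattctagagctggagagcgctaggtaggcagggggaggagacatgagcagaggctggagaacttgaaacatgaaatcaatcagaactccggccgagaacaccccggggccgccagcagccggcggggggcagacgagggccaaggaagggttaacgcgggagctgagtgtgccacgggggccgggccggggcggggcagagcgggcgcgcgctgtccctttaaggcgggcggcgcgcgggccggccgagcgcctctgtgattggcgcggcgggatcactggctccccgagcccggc

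Lrp6, a co-receptor that passes the Wnt signal to Axin, had signals with ADR of 7.18 in lymphoma_1032, 7.52 in lymphoma_4936, 7.40 in lymphoma_5783, 7.53 in lymphoma_7890 and 7.21 in lymphoma_9250. Untreated cells had 7.40, 7.68, 6.77, 7.62 and 7.46 in the same order. The change was -0.02 ± 0.37 (SD, n = 5; 95% interval -0.38 to 0.35; adjusted p = 0.978 in limma). Lymphoma_5783 stood apart with a gain of 0.64, while the other lymphomas lay between -0.25 and -0.10, and without it the mean was -0.18. In that lymphoma the tested macrophage markers had a median change of 1.52, the tested neutrophil markers 1.62 and the tested fibroblast markers 0.56. Over all markers of these lists with a probe set the mean changes were 0.14, 0.44 and 0.42. The 5 NK-cell markers changed by 0.79 on average. Of these, Klrd1 read 4.46 with ADR and 1.47 untreated, and Prf1, the only tested one, changed by -0.17. Ncr1, Nkg7 and Gzma did not exceed the table's median on any array. Whether these markers bear on the Lrp6 value was not tested.

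Lrp5, the related co-receptor, was measured by 1 probe set near the table's median. Its signal was 4.17, 3.87, 4.28, 4.28 and 3.88 with ADR and 4.48, 4.33, 4.52, 4.47 and 3.89 untreated, in the order lymphoma_1032, lymphoma_4936, lymphoma_5783, lymphoma_7890 and lymphoma_9250. It was lower with ADR in all 5, by 0.02 at the least and 0.47 at the most, and the groups overlapped. Because it lay under the filter it has no adjusted p in the main comparison, and with the filter off the paired limma fit gave -0.25 ± 0.16 (SD, n = 5) and adjusted p = 0.642.

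None of the tested destruction complex genes passed the test. Axin1, the scaffold of the complex, had a signal of 7.98 ± 0.30 with ADR and 7.91 ± 0.34 untreated (SD, n = 5 each). In the order of lymphomas just given for Lrp5, Axin1 read 7.45, 8.17, 8.10, 8.13 and 8.04 with ADR and 7.37, 8.25, 7.83, 8.12 and 7.97 untreated. Lymphoma_1032 was the lowest in both groups, and the groups overlapped. It was higher with ADR in 4 of 5 lymphomas, with a mean change of 0.07 ± 0.13 and a 95% interval of -0.18 to 0.32 (adjusted p = 0.850 in limma). The mean was 0.02 without lymphoma_5783 and 0.11 without lymphoma_4936. Apc, the tumor suppressor that binds Axin and beta-catenin, had 7.46 ± 0.33 with ADR and 7.51 ± 0.45 untreated. In that order it read 6.88, 7.68, 7.62, 7.46 and 7.65 with ADR and 6.86, 8.13, 7.48, 7.49 and 7.61 untreated. Its change of -0.06 ± 0.23 (95% interval -0.34 to 0.23; adjusted p = 0.901 in limma) included -0.45 in lymphoma_4936, and without that lymphoma the mean was 0.04, and without lymphoma_5783 it was -0.10. The values in the other lymphomas lay between -0.02 and 0.14.

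Gsk3b, a kinase that phosphorylates beta-catenin, had signals with ADR of 6.34 in lymphoma_1032, 7.95 in lymphoma_4936, 7.90 in lymphoma_5783, 7.72 in lymphoma_7890 and 7.87 in lymphoma_9250. Untreated cells had 7.11, 8.15, 7.78, 7.99 and 7.57. The ADR array of lymphoma_1032 was the lowest of the 10, and the other ADR values lay within the range of the untreated ones. The mean change was -0.17 ± 0.41 (SD, n = 5; 95% interval -0.55 to 0.22; adjusted p = 0.766 in limma), and it was -0.014 without lymphoma_1032 and -0.28 without lymphoma_9250. Of its 6 probe sets 5 were lower on average with ADR and 1 was higher.

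Axin2 is used as a readout of the pathway because beta-catenin and TCF switch it on. Its signal stayed close to the table's median, at 4.05, 4.39, 4.56, 4.18 and 4.02 with ADR and 4.26, 4.54, 4.48, 4.61 and 4.24 untreated, in the order lymphoma_1032, lymphoma_4936, lymphoma_5783, lymphoma_7890 and lymphoma_9250. ADR cells were lower in 4 of 5 lymphomas, and lymphoma_5783 went the other way by 0.08. The mean change was -0.19 ± 0.18 (SD, n = 5), with adjusted p = 0.701 in limma when the filter was off. The other probe set, with a mean of 2.72 over the arrays, had a change of 0.19 ± 0.38, so that the probe sets of Axin2 differed in sign.

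Ctnnb1, the beta-catenin gene, was the only tested member with 1 sign in all 5 lymphomas, which 9.49% of all genes tested had. It was higher in all of them, as 4.67% of genes were, and 0 tested members were lower in all 5, against 4.82% of genes. The signal with ADR was 11.23 in lymphoma_1032, 12.23 in lymphoma_4936, 11.67 in lymphoma_5783, 12.01 in lymphoma_7890 and 11.72 in lymphoma_9250. Untreated cells had 11.09, 12.19, 11.15, 11.88 and 11.71. The gain was 0.51 in lymphoma_5783 and 0.01 to 0.14 elsewhere, and the groups overlapped. Its mean was 0.16 ± 0.20 (SD, n = 5), a fold of 1.12, with a 95% interval of -0.11 to 0.44 and adjusted p = 0.682 in limma. Without lymphoma_5783, the lymphoma with the marker changes given for Lrp6, the mean was 0.08, and their part in the Ctnnb1 value was not tested. A second probe set had a change of 0.17 ± 0.24 and was higher in 4 of 5, and the third had -0.03 ± 0.19 and was higher in 1 of 5.

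Tcf7l2 encodes TCF4, a partner of beta-catenin on DNA. Its representative probe set read 3.58, 3.39, 3.24, 3.33 and 3.35 with ADR and 3.73, 3.91, 3.44, 3.82 and 3.48 untreated, in the order lymphoma_1032, lymphoma_4936, lymphoma_5783, lymphoma_7890 and lymphoma_9250. The change was -0.30 ± 0.19 (SD, n = 5) and negative in all 5 lymphomas, at a level below the table's median on all 10 arrays. With the filter off the paired limma fit gave an unadjusted p of 0.0419 and an adjusted p of 0.631. All 4 of its probe sets had a negative mean change. Those other than the representative had -0.03 ± 0.64, -0.32 ± 0.64 and -0.38 ± 0.73 (SD, n = 5). They were higher with ADR in 2, 1 and 2 of 5 lymphomas. The last pair included -1.26 and -1.58 in lymphoma_4936.

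**Figure D2:**
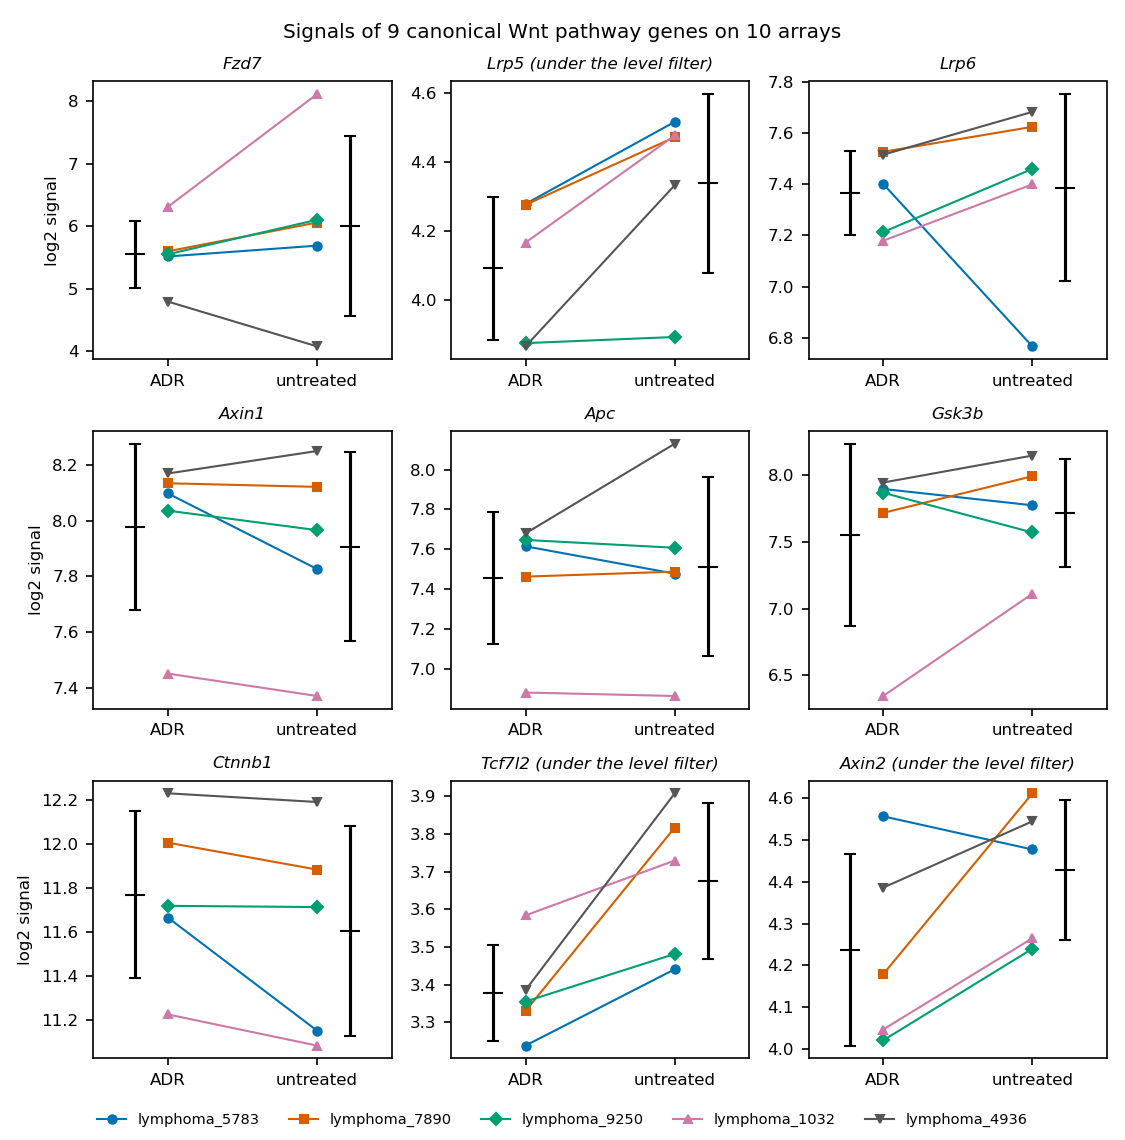
Log2 signal (vertical axis, own scale in each panel) of the 9 genes in ADR and untreated cells. Lines join the 2 arrays of a lymphoma, and black bars are the mean ± SD of each group (n = 5). The lines of lymphoma_1032 lie lowest for Axin1, Apc, Gsk3b and Ctnnb1 and highest for Fzd7.

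Most tested members differed between lymphomas. An F test of the lymphoma term in the same limma fit, added after the data were seen, called 5 of the 6 tested members at an adjusted p below 0.05, against 26.9% of all genes tested. The adjusted p was 0.0249 for Ctnnb1, 0.0381 for Fzd7, 0.0384 for Gsk3b, 0.0405 for Apc and 0.0466 for Axin1, and 0.396 for Lrp6. Over untreated cells the range was 4.04 for Fzd7, 1.26 for Apc, 1.11 for Ctnnb1, 1.04 for Gsk3b, 0.92 for Lrp6 and 0.88 for Axin1. The calls rested on single lymphomas: 0 of 7 tested members (Axin2 then passed the filter) were called without lymphoma_1032, 1 of 6 without lymphoma_7890, 1 of 6 without lymphoma_4936, 3 of 7 without lymphoma_9250 and 5 of 6 without lymphoma_5783. Without lymphoma_1032 the called genes over the whole table fell to 1189, against 3089 with it.

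Ctnnb1, Apc, Axin1 and Gsk3b shared an order of lymphomas that was noticed in the data. In both groups their signal was highest in lymphoma_4936 and lowest in lymphoma_1032, as it was for 3.89% of all genes tested. Untreated cells alone were highest in lymphoma_4936 for these 4 and Lrp6, against 20.4% of genes, and lowest in lymphoma_1032 for these 4, against 25.4%. With ADR the 4 were highest in lymphoma_4936, against 22.9% of genes, and the 4 and Lrp6 were lowest in lymphoma_1032, against 43.3%. The representative probe set of Fzd7 ran the opposite way in both groups. The other probe set of Fzd7 did so in neither group. With ADR it read 4.60 in lymphoma_1032 and 4.81 in lymphoma_4936. Untreated it was highest in lymphoma_1032, at 4.96, but lowest in lymphoma_7890, at 4.33, with 4.76 in lymphoma_4936. The order was found in all 3 probe sets of Ctnnb1 in untreated cells, while over all 26 probe sets of the 9 genes 15 were highest in lymphoma_4936 and 12 lowest in lymphoma_1032. Of the 4 probe sets of Apc, 2 were highest in lymphoma_4936 and 2 lowest in lymphoma_1032. For Axin1 these were 1 and 1 of 2, and for Gsk3b 3 and 5 of 6. The untreated arrays of lymphoma_4936 and lymphoma_1032 had medians of 4.48 and 4.44, and the ADR arrays 4.45 and 4.15. Their cell markers differed: untreated lymphoma_4936 had mean signals of 8.85 for B-cell, 4.99 for macrophage and 4.21 for neutrophil markers, and untreated lymphoma_1032 had 8.06, 7.44 and 6.36. Whether these markers bear on the order was not tested.

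**Figure D3:**
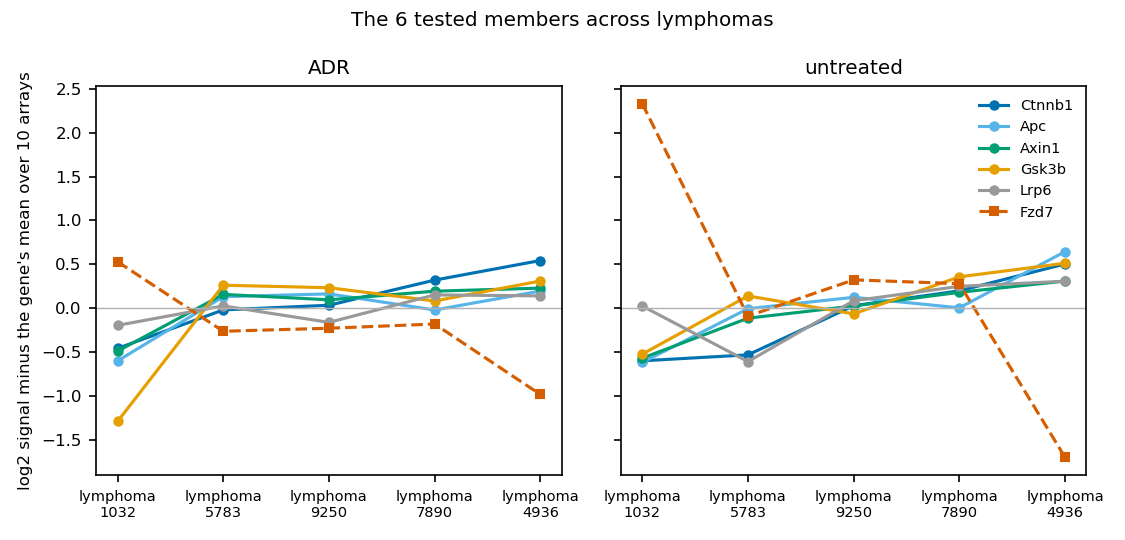
Log2 signal of the 6 tested members minus each gene's mean over the 10 arrays (vertical axis), for ADR (left) and untreated cells (right). Lymphomas are placed by the untreated signal of Ctnnb1, and lines only guide the eye. Ctnnb1, Apc, Axin1 and Gsk3b are lowest in lymphoma_1032 and highest in lymphoma_4936 in both panels, and Fzd7 is the reverse.

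The lesser probe sets of Tcf7l2 set lymphoma_4936 apart. One read 4.58 with ADR and 5.83 untreated in lymphoma_4936, while the remaining lymphomas read 1.72 to 2.67 with ADR and 2.21 to 2.26 untreated. Another read 3.21 with ADR and 4.79 untreated there, with no more than 2.65 and 2.70 elsewhere. Both were lower with ADR in lymphoma_4936, by 1.26 and 1.58. The other pair of probe sets, the representative among them, showed no such step, and its levels were at most 4.14 over all arrays.

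**Figure D4:**
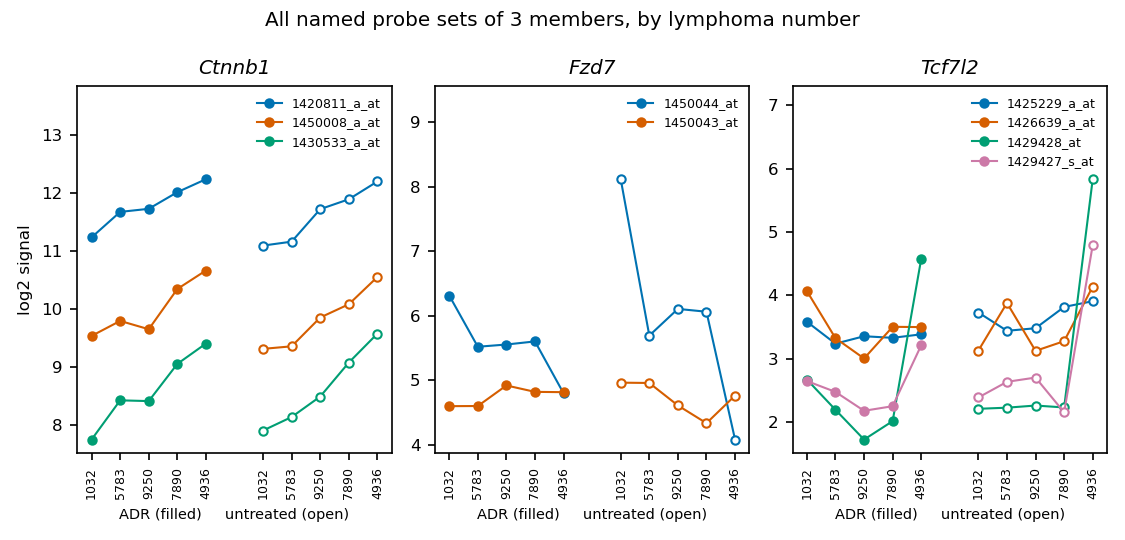
Log2 signal (vertical axis) of every named probe set of Ctnnb1, Fzd7 and Tcf7l2 by lymphoma number (horizontal axis), with ADR as filled and untreated as open points. The 3 probe sets of Ctnnb1 run in parallel, the 2 of Fzd7 do not, and 2 of the 4 of Tcf7l2 are high in lymphoma_4936 only.

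For the 3 tested members with the widest range, the genes with the most similar signal were named by Pearson's r over the 10 arrays. Fzd7 was most like Arfgap3 (r = 0.957), Cenpj (0.956) and Ppp6c (0.953). Gsk3b was most like Crnde (r = 0.971), Vps16 (0.970) and Abhd13 (0.968). Apc was most like Ahctf1 (r = 0.982), Yrdc (0.981) and Ppp1r15b (0.980). The 10 arrays are 5 pairs that share a lymphoma, and these are the best of 11472 genes, so the values only describe the arrays.

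Of 111 further pathway genes, 110 had a probe set and 67 were tested. None rose or fell at an adjusted p below 0.05 in limma, and 7 had an unadjusted p below 0.05, 10.4% of them beside 8.48% of all genes. On average 44 were lower with ADR and 23 higher, while 55.2% of all genes tested were lower. Their median change was -0.09, beside -0.02 over all genes tested. In all 5 lymphomas 5 of the 67 were lower and 1 was higher, against 4.82% and 4.67% of all genes tested. Of the genes with a probe set, 6 of 19 ligands, 4 of 9 genes of the R-spondin axis and 6 of 13 secreted and membrane inhibitors were tested. None of Porcn and Wls, which serve Wnt secretion, and Notum, a secreted enzyme that inactivates Wnt proteins, passed the filter.

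**Figure D5:**
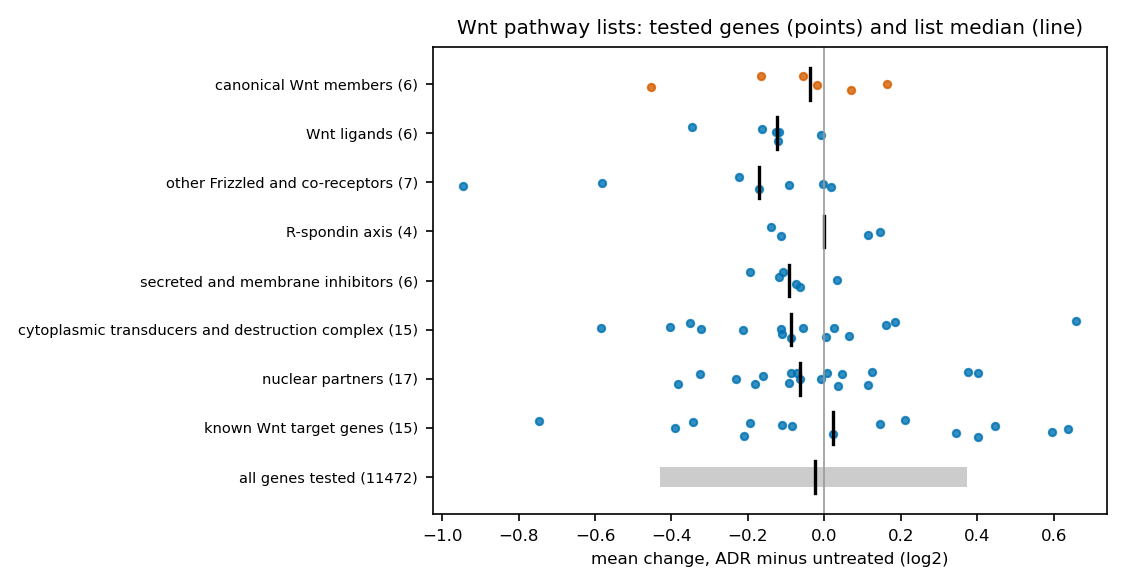
Mean change with ADR (log2, ADR minus untreated, horizontal axis) of the tested genes of each Wnt pathway list. Points are genes, black lines are list medians, and the number of tested genes stands in brackets. The grey bar spans the 5th to 95th percentile of all 11472 genes tested, and most points of every list lie within it.

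Of the 7 other Frizzled and co-receptor genes tested, 6 were lower on average. Over all genes tested 55.2% were lower on average and 4.82% in all 5 lymphomas. Fzd5 had a signal of 4.49 ± 0.62 with ADR and 5.43 ± 0.50 untreated (SD, n = 5 each), a change of -0.94 ± 0.64 that was negative in 4 of 5 lymphomas (adjusted p = 0.565 in limma). Fzd6 had a change of -0.58 ± 0.59, negative in all 5 (adjusted p = 0.565 in limma). In lymphoma_4936 Fzd6 had 8.59 with ADR and 9.86 untreated, while the remaining lymphomas read 3.74 to 4.94 with ADR and 4.69 to 4.94 untreated. Lymphoma_4936 was thus high in Fzd6 and low in the representative probe set of Fzd7. All 6 tested ligand genes had a negative mean change, and those with the smallest p were Wnt4 at -0.35 ± 0.45 and Wnt7a at -0.12 ± 0.10. Without lymphoma_1032 the mean of Wnt4 was -0.23.

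Of 15 tested cytoplasmic genes 9 were lower on average and 6 higher. The shares of all genes tested were 55.2% lower on average and 4.82% lower in all 5 lymphomas. Frat2, which binds Gsk3 and keeps it from Axin, had a change of -0.58 ± 0.48 (SD, n = 5). Amer1, a partner of Apc at the membrane, had a change of -0.32 ± 0.17 and was lower in all 5 lymphomas. Among 17 nuclear partners 10 were lower and 7 higher, and Tle1, a Groucho family co-repressor of TCF, had a change of -0.38 ± 0.17 with a lower signal in all 5. Each of these had adjusted p = 0.565 in limma. Bcl9l, a co-activator of beta-catenin, had -0.33 ± 0.51 (adjusted p = 0.641 in limma). Of the R-spondin axis, Lgr6 had 0.11 ± 0.18 and Rspo2 -0.11 ± 0.21, and of the inhibitors Dkk3 had -0.19 ± 0.70 and Sfrp1 -0.11 ± 0.39. Without lymphoma_1032 the mean was 0.10 for Dkk3, 0.06 for Sfrp1 and -0.14 for Bcl9l. The mean was 0.05 for Lgr6 without lymphoma_5783 and -0.04 for Rspo2 without lymphoma_4936.

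Of 15 tested target genes of the pathway, 8 were higher and 7 lower on average, while 55.2% of all genes tested were lower. Their median change was 0.02. Abcb1b, a drug efflux transporter, and Ccnd1, which encodes cyclin D1, had the smallest p of the list, with changes of 0.64 ± 0.37 and 0.60 ± 0.52 (SD, n = 5; adjusted p = 0.565 in limma for both). Both genes are also controlled by other pathways. Abcb1b was higher with ADR in 5 of 5 lymphomas, as 4.67% of all genes tested were, and Ccnd1 in 4 of 5.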

How the data were processed

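Total RNA of 10 cultures, ADR and untreated cells of 5 lymphomas, was hybridised to Affymetrix arrays. The submitters' processing notes name RMA and Partek for the log2 values that the authors deposited. Tool versions and the base of the logarithm were not given in the sources used here; base 2 was taken from the range of the values. The number of arrays limits the precision. No detection calls were used.

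Of 45101 probe sets, the platform annotation gave 34945 a single symbol, 932 several and 9160 none, besides 64 controls. Gene IDs of 34741 were found in RefSeq (GRCm38.p6), and 0 symbols changed. ADR minus untreated was fitted with limma 3.58.1 in R 4.3.3 with the lymphoma as a block, two-sided, on 11472 genes. Intervals are at 95%. Same-numbered arrays came from 1 lymphoma, per the labels, and the 2 arrays of a lymphoma deviated from their group means together (correlation 0.51 to 0.79). In simulated data with the observed spread, the fit recovered 6% of 50 genes given a change of 0.5, 80% at 1 and 100% at 2 and at 3, and 8 of 11272 unchanged genes were called.

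The members and lists were chosen with earlier results of these data known. Named were all members, of each pathway list the 2 tested genes with the smallest p, and the 3 most similar genes of 3 members; Lgr5 and the probe sets other than the representative were picked with their values in view. Suv39h1 had 0 named probe sets, so the genotype was not checked. Alternatives were no block, no or a stricter filter (70th percentile), the mean of a gene's probe sets, quantile normalization, median centring and leaving out each lymphoma; leaving out lymphoma_5783 and lymphoma_1032 together was added later. Tables and plots used Python 3.11.15, pandas 2.3.3 and matplotlib 3.10.9.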

Additional observations from a re-analysis of the deposited data

Results flagged for a closer look

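In 126 sets of 5 values, 20 held 1 value far from the others by Dixon's ratio. Chance gives about 1 in 20 for independent sets of normal values. These sets share arrays, genes and pairs, so that rate cannot be set against the count. Of the representative probe sets, Ctnnb1 changed by 0.51 in lymphoma_5783 and by 0.01 to 0.14 elsewhere, Lrp6 by 0.64 in lymphoma_5783 and by -0.25 to -0.10 elsewhere, and Apc by -0.45 in lymphoma_4936 and by -0.02 to 0.14 elsewhere. On the ADR array of lymphoma_1032, Apc had 6.88, against at least 7.46 on the other ADR arrays, Axin1 had 7.45, against at least 8.04, and Gsk3b had 6.34, against at least 7.72. That array also had the lowest median.

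Among the lesser probe sets, untreated lymphoma_4936 had 4.79 and 5.83 for Tcf7l2. On the ADR array of lymphoma_1032, Axin2 had 3.47, and Gsk3b had 5.19 on one probe set (a change of 1.46, with at most 0.0024 elsewhere) and 6.15 on another. The probe set at 6.15 changed by 0.39 in lymphoma_9250 and by -0.36 to -0.22 elsewhere.

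Of other pathway genes, Fzd6 in lymphoma_4936 had 8.59 with ADR and 9.86 untreated. The ADR array of lymphoma_4936 was low for Rspo2, at 4.14, and for Dkk3, at 4.18. In lymphoma_1032, Dkk3 had 6.33 untreated, Sfrp1 changed by -0.79, and Frat2 had 4.88 with ADR, against at least 7.04 on the other ADR arrays.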

How the results depend on the processing

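In every alternative run, 0 genes and 0 members passed the threshold for ADR against untreated (limma), and the lowest adjusted p of any member was 0.360, for Fzd7 without lymphoma_4936. The median change of the tested members moved by less than its spread between lymphomas in all of them. Axin1, Ctnnb1, Fzd7 and Gsk3b kept the sign of their mean change throughout. Apc turned positive with median centring (0.0242) and without lymphoma_4936, with -0.105 to 0.0422 over the lymphomas left out in turn, and Lrp6 with median centring (0.0610) and without any single lymphoma but lymphoma_5783, with -0.183 to 0.0374; the cause was not tested. Genes at an unadjusted p below 0.05 numbered 262 without the lymphoma block, that is with no pairing of the arrays, 560 to 1458 with 1 lymphoma left out, and 499 without lymphoma_5783 and lymphoma_1032. Of the 973 genes at that p in the main setting 455 were higher with ADR, against 882 of 1176 with median centring, 601 of 1041 with quantile normalization and 62 of 262 without the block. Genes with 1 sign in all lymphomas used numbered 1513 to 2654 with 1 left out and 2725 with both left out, where fewer lymphomas need to share a sign. The F test between lymphomas called 1189 to 2803 genes with 1 left out and 677 with both left out. Members called by it numbered 3 unfiltered, 2 when probe sets of a gene were averaged, 3 with median centring, 0 to 5 with 1 lymphoma left out and 0 without lymphoma_5783 and lymphoma_1032. Arrays of 5 lymphomas leave changes of 0.5 or less mostly unresolved, as the simulated data show.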

Other observations

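Of other Wnt genes, Lef1 and Lgr5 were singled out after their values were seen, for their signal in lymphoma_5783. Lef1, a partner of beta-catenin on DNA, had 9.11 with ADR and 7.20 untreated there, a change of 1.91. In the other lymphomas it changed by -0.87 in lymphoma_1032, 0.53 in lymphoma_4936, 0.60 in lymphoma_7890 and -0.16 in lymphoma_9250, and over all 5 by 0.40 ± 1.03 (SD, n = 5; adjusted p = 0.734 in limma). Lgr5, an R-spondin receptor that marks stem cells of the intestine, had 6.97 with ADR and 5.61 untreated in lymphoma_5783. Elsewhere it was at most 4.56 with ADR and at most 4.50 untreated, and it lay under the level filter. Axin2 had 4.56 with ADR and 4.48 untreated in that lymphoma. The tested macrophage, neutrophil and fibroblast markers had median changes of 1.52, 1.62 and 0.56 there. Over all of these markers with a probe set the means were 0.14, 0.44 and 0.42. The 5 NK-cell markers had a mean change of 0.79, with Klrd1 at 4.46 with ADR and 1.47 untreated. Prf1, the only tested NK-cell marker, changed by -0.17. The part of these markers in the Lef1 and Lgr5 values was not tested.

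Lef1 also differed between lymphomas (F test of the lymphoma term, adjusted p = 0.0081 in limma), as 26.9% of all genes tested did. The test used the values by which Lef1 was picked, so it only describes them. Lef1 read 9.29 with ADR and 8.75 untreated in lymphoma_4936, and 5.29 and 4.69 in lymphoma_7890.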
